A study of Mus musculus with 46 samples.

Results

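B16F10 is a mouse melanoma cell line that grows as pigmented, rapidly dividing cells. The cultures described here were of 2 genotypes, sgScramble with a non-targeting guide as the control and sgArid1a with a guide that targets Arid1a, and all of them received DMSO, the solvent control of an inhibitor experiment, for 72 h. They were chosen by their labels: 2 sgArid1a DMSO libraries were set against 2 sgScramble DMSO libraries, 4 of the 46 samples of the series, and every gene of the table was taken. The table holds 24537 genes, of which 7828 were at 0 in all 6 libraries of the inhibitor experiment and 11783 averaged a log2 value of 4 or more and were tested. The remaining group of that experiment, sgArid1a cells that received the JAK1 and JAK2 inhibitor ruxolitinib for 72 h, entered the fit for its spread, and its levels are given below as a description. The series as a whole covers 23 groups of 2 samples, in tumors, cultures and other cell types, and asks how Arid1a bears on type I interferon signalling. The labels give polyA RNA from cultures of 1 cell line. They do not say whether each guide line was 1 clone or a pool, nor whether replicates came from separate cultures, so each p-value reflects no more than the spread among these libraries, which may be technical.

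Arid1a is a large subunit of SWI/SNF (BAF), a complex that moves nucleosomes with the energy of ATP and keeps many enhancers open. Type I interferons are secreted proteins that bind the receptor Ifnar1/Ifnar2, activate the kinases Jak1 and Tyk2 and, through STAT factors and Irf9, switch on interferon-stimulated genes, whose products block viruses and load peptides on MHC class I. The integrated stress response is a separate program: kinases that sense amino acid shortage, misfolded protein in the endoplasmic reticulum (ER), viral RNA or heme shortage phosphorylate the initiation factor eIF2alpha, which slows translation in general but raises that of Atf4, a factor that drives amino acid synthesis and transport.

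Depth was 15.5 to 20.3 M reads per library in the 4 DMSO libraries, per the file headers. The values are the authors' log2 values, in which the lowest genes are drawn together, so a fold change of a gene with few reads is smaller on this scale than on the scale of counts. The defining genes of pigment cells, Tyrp1, Dct and Pmel, lay between 16.21 and 17.94 in the DMSO libraries, and all 10 melanocyte markers were tested. Among 12 T and NK cell markers 9 were at 0 in all 6 libraries, and none was tested, as were none of the 8 keratinocyte markers, all at 0. Of the 15 macrophage markers 2, Cd163 and Cx3cr1, were at 0 throughout. The summed log2 values of the 15 were 46.19 and 47.09 in sgScramble, 44.86 and 44.8 in sgArid1a and 47.39 and 46.4 with ruxolitinib. Of the 15, 11 were lower in sgArid1a with no overlap, but 10 of the 15 lay under the limit for testing. All 5 tested markers were lower with no overlap, beside 23% of tested genes. The authors' deposited table calls 5 of the 15 lower and 0 higher at its adjusted p under 0.05.

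Lyz2, the macrophage lysozyme, read 6.92 and 7.25 in the sgScramble libraries, 6.49 and 6.4 in sgArid1a and 7.54 and 7.15 with ruxolitinib. It was lower by 0.64 ± 0.12 (SE, log2; limma adjusted p = 0.00746). C1qb, a complement subunit of macrophages, read 4.47 and 4.62 against 4.24 and 4.23 (log2 fold change -0.31 ± 0.06, adjusted p = 0.011), and the authors' deposited table gives a log2 fold change of -5.23 for it. Of the 5 macrophage markers tested, 2 were called lower and none higher, and without either sgArid1a library neither was called. In the untreated cultures Lyz2 lay between 3.81 and 3.86 and C1qb was at -1.97 in all 4 libraries, which is the floor of that table. The part of these transcripts in the results below was not tested.

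Arid1a itself, on chr4:133679008-133753611 of the mouse build mm10 (minus strand), read 11.76 and 11.29 in sgScramble, 11.29 and 11.24 in sgArid1a and 11.08 and 11.17 with ruxolitinib. The groups met at 11.29, and the log2 fold change of -0.26 ± 0.12 did not pass the test (adjusted p = 0.235). In the untreated cultures the transcript was lower by 0.47 ± 0.07 (10.95 and 11.1 against 10.57 and 10.53, adjusted p = 0.00361). The target site of the guide is not given in the sources used here, and a value summed over all exons need not drop when a guide cuts a gene, so this level is a weak check of the label. No subunit of SWI/SNF among the 27 tested was called, beside 7.88% of all tested genes, with a median log2 change of 0.07. That median was 0.10 without sgScramble replicate 1 and -0.02 without replicate 2. The subunits called were mostly higher in the first of these fits and only lower in the second. Phf10, a subunit of the PBAF form, had -0.27 ± 0.09 (adjusted p = 0.0792), and Smarca4, the ATPase Brg1, had 0.14 ± 0.12 (adjusted p = 0.499). Phf10 was called lower with the length trend removed from each library (-0.26, limma adjusted p = 0.0294). It was also called lower in the untreated cultures (-0.57 ± 0.07, limma adjusted p = 0.00111), where 3 subunits were lower and 1 higher.

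The sgScramble replicates differed from each other along transcript length. Their median absolute difference over tested genes was 0.12 (log2), against 0.07 in sgArid1a and 0.05 with ruxolitinib. Replicate 1 minus replicate 2 had a median of -0.12 in the shortest 25% of transcripts (up to 1837 exon bases) and 0.14 in the longest (from 4394 bases), with a correlation across genes of 0.55 with log2 length; genes are not independent replicates. The nuclear noncoding RNAs Malat1 and Neat1 were higher in replicate 1, by 1.04 and 0.89, whereas Rpl41 and Rplp1, short ribosomal protein transcripts, stood at -0.64 and -0.62. Removing the length trend from each library, an alternative chosen after the data were seen, gave 666 genes higher (5.65% of those tested) and 771 lower (6.54%).

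**Figure D1:**
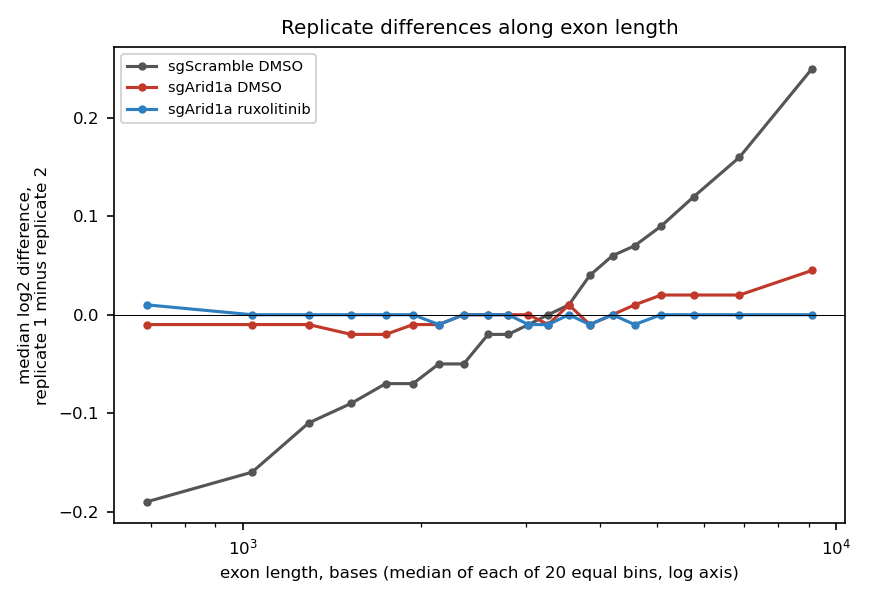
Median difference between the replicates of each group (log2, y axis) over 20 bins of genes by exon length (x axis, log scale), with 1 line per group. The sgScramble DMSO line climbs from below 0 in short transcripts to above 0 in long ones, and the other 2 lines stay near 0.

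Between sgArid1a and sgScramble DMSO cultures, 412 genes (3.5% of those tested) were called higher and 516 (4.38%) lower at a limma adjusted p under 0.05. The median change over all tested genes was 0.00. On this scale, which draws the lowest genes together, lower genes reached further. There 20 of them were down by a log2 value of 1 or more, whereas 1 gene, Kcnj13, was up by as much. All 412 and all 516 had groups that did not overlap, which is true of 25.8% of tested genes in the higher direction and 23% in the lower. The authors' deposited table gives 306 genes higher and 557 lower at its own adjusted p under 0.05 (1.25% and 2.27% of all 24537 genes). Of the limma calls, 277 of the higher and 432 of the lower genes were called the same way in the authors' deposited table, and 0 were called the opposite way.

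The calls depended on single libraries. Without sgArid1a replicate 1 there were 179 calls and without sgArid1a replicate 2 there were 197, with the lone sgArid1a library assumed to vary like the other groups. Without either sgScramble library there were more calls than in the main fit. A lone sgScramble library is also assumed to vary like the other groups. The sgScramble pair, however, differed most (median absolute difference 0.12, against 0.07 in sgArid1a and 0.05 with ruxolitinib). Counts without an sgScramble library, here and below, are therefore not comparable with the main counts. In all 4 of these fits, 24 of the higher and 115 of the lower genes kept their call and direction; such genes are described below as held in every leave-one-out fit.

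Of the 12 deepest falls on the log2 scale used here, 8 were in known targets of Atf4 or genes of the integrated stress response. Nupr1, Trib3 and Chac1 led them. Nupr1, a small stress-induced chromatin protein (chr7:126623246-126625470, minus strand, mm10), read 9.21 and 9.32 in sgScramble and 6.84 and 6.71 in sgArid1a. Its log2 fold change was -2.49 ± 0.08 (adjusted p = 3.17e-09), and the authors' deposited table gives -4.56. Trib3, a pseudokinase that restrains Atf4 and Akt (chr2:152337425-152344060, minus strand), read 10.85 and 11.08 against 8.61 and 8.61 (-2.35 ± 0.09, adjusted p = 1.73e-08). Chac1, which degrades glutathione, read 9.95 and 10.2 against 8.4 and 8.36 (-1.70 ± 0.09, adjusted p = 7.15e-07). For each of these 3 genes the sgArid1a pair sat more than a log2 unit below both controls.

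Atf4 itself, the factor at the head of the program, read 13.12 and 13.23 against 12.52 and 12.59, a fall of a smaller size (-0.62 ± 0.09, adjusted p = 0.00101). Its partners and successors were lower too. Ddit3 (CHOP), the factor linked to death under lasting stress, read 10.33 and 10.34 against 8.94 and 9.01 (-1.36 ± 0.08, adjusted p = 1.17e-06). Atf5, a relative of Atf4, fell by 1.38 on the log2 scale, Atf3 by 0.95, Cebpb by 0.81 and Cebpg, a dimer partner of Atf4, by 0.80. Ppp1r15a (GADD34), which dephosphorylates eIF2alpha and so ends the response, read 8.62 and 8.62 against 7.71 and 7.74 (-0.89 ± 0.08, adjusted p = 2.36e-05). Sesn2 and Ddit4, inhibitors of the growth kinase mTORC1, changed by -0.78 ± 0.08 and -0.83 ± 0.10.

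Over the list of integrated stress response factors and targets, 20 of the 23 tested members were lower and 0 higher, with a median of -0.80 against 0.00 for all genes; 4 listed members, Gdf15, Fgf21, Stc2 and Soat2, lay under the limit for testing. The lower members numbered 17 to 20 in the 4 leave-one-out fits, and 17 of them held in every one. With ruxolitinib these transcripts lay near the sgArid1a DMSO level: Nupr1 read 6.74 and 6.76, Trib3 8.44 and 8.52, Ddit3 8.89 and 9.03, and Atf4 12.41 and 12.48.

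**Figure D2:**
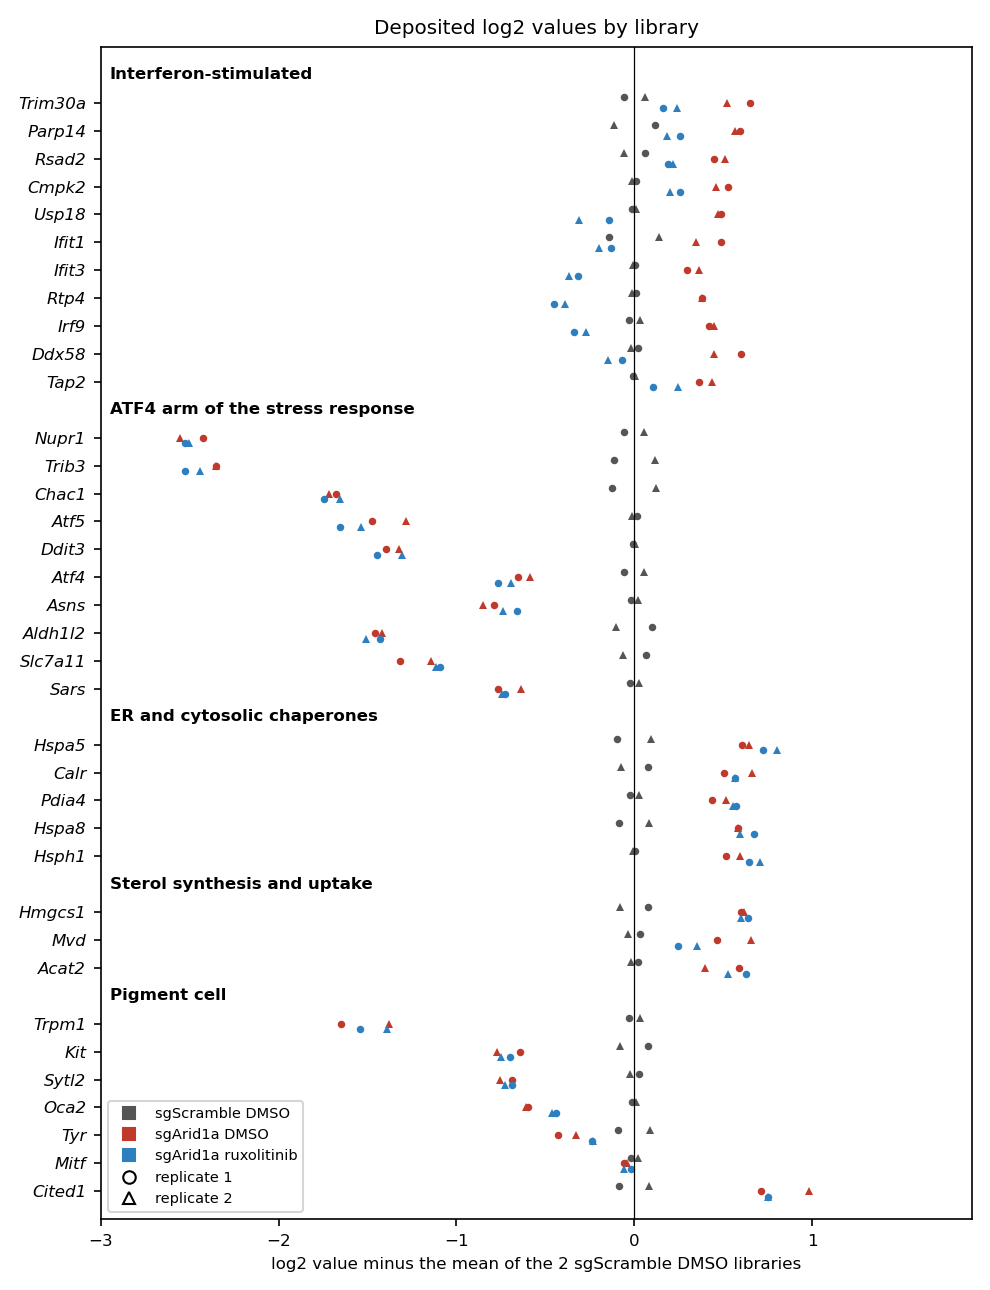
Deposited log2 value of named genes in each of the 6 libraries (x axis, as a difference from the mean of the 2 sgScramble DMSO libraries), circles for replicate 1 and triangles for replicate 2. Nupr1 and Trib3 lie more than 2 log2 units to the left in sgArid1a cells with or without ruxolitinib, whereas Ifit3, Rtp4 and Irf9 lie to the right with DMSO and to the left of the controls with ruxolitinib.

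The promoters of 3 of these genes are printed because they hold the core of the C/EBP-ATF composite element, the site bound by Atf4 with a C/EBP partner. Each line gives the 250 bases before the RefSeq start site, 5′ to 3′ on the strand of the gene (build GRCm38.p6), and capitals mark the match to TGATGNAA read on either strand. Nupr1 is at chr7:126625471-126625720 (minus strand), Chac1 at chr2:119350992-119351241 (plus strand) and Atf3 at chr1:191183334-191183583 (minus strand).
Nupr1: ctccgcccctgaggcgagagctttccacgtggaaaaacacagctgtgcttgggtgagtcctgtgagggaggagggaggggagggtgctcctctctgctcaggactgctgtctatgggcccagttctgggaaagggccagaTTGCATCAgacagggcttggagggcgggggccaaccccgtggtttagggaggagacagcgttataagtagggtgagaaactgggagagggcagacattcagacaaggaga
Chac1: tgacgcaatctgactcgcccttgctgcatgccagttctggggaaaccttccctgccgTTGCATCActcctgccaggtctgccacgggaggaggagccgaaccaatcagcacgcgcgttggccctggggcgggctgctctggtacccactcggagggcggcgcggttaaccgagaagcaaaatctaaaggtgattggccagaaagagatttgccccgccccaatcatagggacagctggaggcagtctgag
Atf3: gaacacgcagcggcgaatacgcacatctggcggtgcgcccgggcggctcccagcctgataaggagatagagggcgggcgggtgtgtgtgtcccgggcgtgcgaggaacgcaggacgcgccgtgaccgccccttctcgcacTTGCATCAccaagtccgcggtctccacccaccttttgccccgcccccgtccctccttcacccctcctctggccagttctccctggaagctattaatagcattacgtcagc
In all 3 promoters the match is the same 8 letters, TTGCATCA, on the opposite strand. It begins 110 bases before the start site in Nupr1, 193 in Chac1 and 110 in Atf3. A match is a description of letters and not a bound site.

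Over the 300-base windows from 250 bases before to 50 after the start, 4.0% of all 32851 RefSeq promoter windows hold this motif. A window was found for 17601 of the 24537 genes, by symbol, and a gene with several start sites counted if any of its windows matched. Of the 411 genes with a window that were called lower, 40 held a match (9.7%), beside 6 of 317 genes called higher (1.9%) and 2.6% of the 9187 tested genes. Of the stress response list, 23 members had a window, which are not the same genes as the 23 tested members. The match was in 7 of them (30.4%). With only the 250 upstream bases the lower genes stood at 7.5% and the higher at 1.6%.

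**Figure D3:**
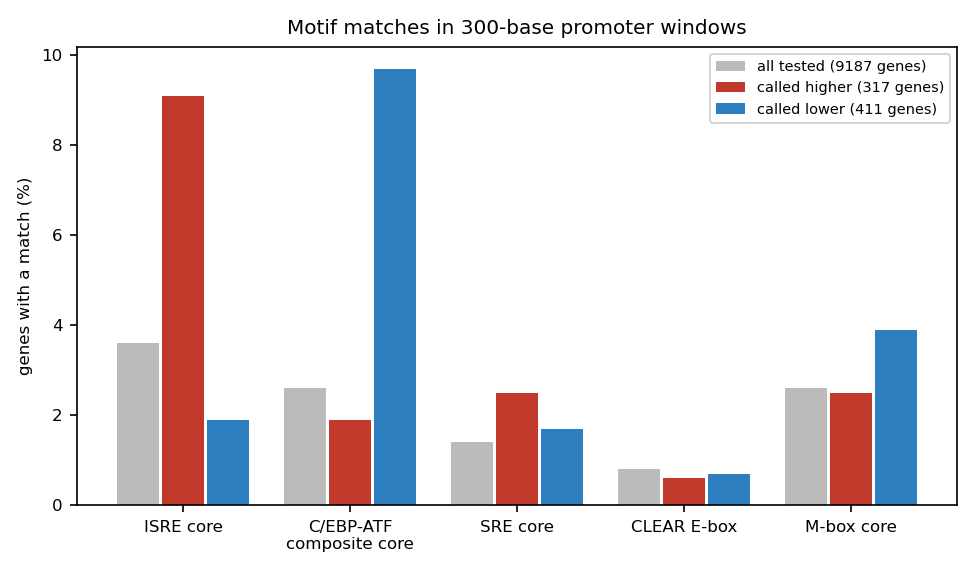
Share of genes with a motif match in a 300-base promoter window (y axis, percent, from 0) for 5 motifs (x axis), in grey for all 9187 tested genes with a window, red for 317 called higher and blue for 411 called lower. The red bar stands out for the interferon element at 9.1% and the blue bar for the C/EBP-ATF element at 9.7%.

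Amino acid synthesis and transport genes, many of them known targets of Atf4, were lower in 17 of 25 tested and higher in 2 (median -0.68). Asns, which makes asparagine, read 12.09 and 12.13 in sgScramble against 11.32 and 11.26 in sgArid1a (-0.82 ± 0.08, adjusted p = 7.71e-05). Aldh1l2, a mitochondrial folate enzyme, read 10.81 and 10.61 against 9.25 and 9.29 (-1.44 ± 0.09, adjusted p = 1.17e-06). The serine route was lower at each step: Phgdh at -0.69 ± 0.10, Psat1 at -0.39 ± 0.08 and Psph at -0.79 ± 0.09, and the serine-using mitochondrial enzymes Shmt2 and Mthfd2 at -0.63 ± 0.09 and -0.59 ± 0.08. Among transporters, Slc7a11, the cystine importer, read 10.14 and 10.01 against 8.76 and 8.93 (-1.23 ± 0.09, adjusted p = 4.13e-06). Slc7a5 and Slc3a2, the subunits of the leucine transporter, changed by -0.76 ± 0.09 and -0.54 ± 0.09. The 2 genes that rose were Mthfd1, the cytosolic folate enzyme (10.5 and 10.37 against 10.88 and 10.99), and Cbs, of the transsulfuration route (4.84 and 4.77 against 4.95 and 5.08), a gene near the floor of the table. Lower members numbered 14 to 18 in the leave-one-out fits, and 14 held in all of them.

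Aminoacyl-tRNA synthetases, which charge tRNAs with amino acids, were lower in part. Of 20 cytosolic enzymes and relatives tested, 9 were lower and 1 higher. Sars, the seryl enzyme, read 12.59 and 12.64 against 11.85 and 11.98 (-0.70 ± 0.08, adjusted p = 0.000282), and Lars, the leucyl enzyme, 11.51 and 11.58 against 11.06 and 10.95 (-0.54 ± 0.08, adjusted p = 0.00162). Cars, Aars, Gars, Eprs, Tars, Nars and Iars were the others that fell. Kars, the lysyl enzyme, read 11.15 and 11.15 against 11.41 and 11.51 (0.31 ± 0.08, adjusted p = 0.033). The authors' deposited table did not call Kars (adjusted p = 0.139). In the untreated cultures Kars had 0.12 ± 0.07 (limma adjusted p = 0.325), and 11 of the 20 enzymes were lower and 0 higher. Hars and Vars had 0.19 ± 0.08 and -0.19 ± 0.09 and did not pass. The count of lower enzymes was 3 without either sgArid1a library.

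ER chaperones went the other way from the Atf4 targets. Of 22 tested, 10 were higher and 2 lower, with a median of 0.27. Hspa5 (BiP), the main chaperone of the ER lumen and a target of Atf6 and Xbp1, read 13.72 and 13.91 against 14.42 and 14.46 (0.62 ± 0.10, adjusted p = 0.00207). Calr, the lectin chaperone that also helps load MHC class I, read 13.29 and 13.14 against 13.72 and 13.88 (0.58 ± 0.10, adjusted p = 0.00293). Creld2, Pdia4, Pdia3, Manf, Sdf2l1, Hyou1, Hsp90b1 and Xbp1 rose by 0.32 to 0.51 on the log2 scale. The 2 members that fell were Herpud1, a degradation factor that Atf4 also drives (10.8 and 10.85 against 10.34 and 10.4), and Atf6 itself (10.84 and 10.71 against 10.39 and 10.47). Without sgArid1a replicate 1 there were 3 higher members, and without sgArid1a replicate 2 there were 0.

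Chaperones of the cytosol showed the same direction in 6 of 17 tested members, with 0 lower. Hspa8, the constitutive Hsp70, read 12.78 and 12.95 against 13.45 and 13.45 (0.59 ± 0.09, adjusted p = 0.00196), and Hsph1, its nucleotide exchange factor, 10.95 and 10.94 against 11.46 and 11.54 (0.56 ± 0.08, adjusted p = 0.00119). Both held in every leave-one-out fit; leaving out the first sgArid1a library left 3 calls in the list, leaving out the second left 2, and leaving out the second sgScramble library gave 10. Values of Hspa1b (5.12 and 5.15 against 5.39 and 5.31) are uncertain because its sequence is nearly that of Hspa1a.

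Targets of Nrf2, the factor that answers oxidative stress, were higher in 5 of 23 tested and lower in 1. Gsr, which regenerates glutathione, read 10.08 and 10.15 against 10.6 and 10.59 (0.48 ± 0.08, adjusted p = 0.00266). Osgin1, Srxn1, Txnrd1 and Nqo1 also rose, by 0.27 to 0.49. The member that fell is Slc7a11, which Atf4 drives as well. Hmox1, often the strongest target, had -0.05 ± 0.08 (adjusted p = 0.748). Removing sgArid1a replicate 1 left 1 higher member and removing replicate 2 left 0, whereas removing sgScramble replicate 1 gave 8 higher and 5 lower.

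Interferon-stimulated genes were higher by modest amounts. Of the 46 tested members of the list of type I effectors, 24 were higher and 0 lower, with a median of 0.24 against 0.00 for all genes; 12 of the 58 listed, among them Oas2, Oas3, Ifi44 and Iigp1, lay under the limit for testing. Trim30a, a ubiquitin ligase that dampens innate signalling (chr7:104409026-104465193, minus strand, mm10), read 7.53 and 7.65 in sgScramble and 8.24 and 8.11 in sgArid1a, the largest rise of the list (0.59 ± 0.08, adjusted p = 0.00101). Parp14, an ADP-ribosyltransferase, read 7.88 and 7.65 against 8.36 and 8.33 (0.58 ± 0.09, adjusted p = 0.00179). Rsad2 (viperin), which makes a chain-ending nucleotide, read 9.31 and 9.19 against 9.7 and 9.76 (0.48 ± 0.08, adjusted p = 0.00346). In these 3 genes every sgArid1a library lay above every sgScramble library.

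Rtp4, an effector against flaviviruses, read 6.36 and 6.34 against 6.73 and 6.73 (0.38 ± 0.06, adjusted p = 0.00261). The cap-binding Ifit1 and Ifit3 rose by 0.42 ± 0.10 and 0.33 ± 0.07 (adjusted p = 0.0223 and 0.0141). Igtp and Irgm1, immunity-related GTPases, rose by 0.42 ± 0.06 and 0.45 ± 0.08, and Gbp3 and Gbp7, guanylate-binding proteins, by 0.34 ± 0.06 and 0.44 ± 0.09. Other well known members did not pass: Mx1 had 0.08 ± 0.07 (adjusted p = 0.522), Bst2 (tetherin) 0.30 ± 0.09 (adjusted p = 0.062), Ifitm3 0.24 ± 0.09 (adjusted p = 0.102) and Isg20 0.02 ± 0.05 (adjusted p = 0.838). The GTPases and Oas genes belong to families of close copies, so reads may be split among their members. The count of 24 became 5 without either sgArid1a library, and 4 members (Trim30a, Parp14, Rtp4 and Igtp) held in every leave-one-out fit.

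The 3 promoters printed next are those of called genes that hold the core of the interferon-stimulated response element, the site that Irf9 binds with STAT factors, before their start. Lines are written as above, with capitals for the match to GAAA, any 2 bases and GAAA again, on either strand: Trim30a at chr7:104465194-104465443 (minus strand), Rsad2 at chr12:26456453-26456702 (minus strand) and Ifit3 at chr19:34583279-34583528 (plus strand).
Trim30a: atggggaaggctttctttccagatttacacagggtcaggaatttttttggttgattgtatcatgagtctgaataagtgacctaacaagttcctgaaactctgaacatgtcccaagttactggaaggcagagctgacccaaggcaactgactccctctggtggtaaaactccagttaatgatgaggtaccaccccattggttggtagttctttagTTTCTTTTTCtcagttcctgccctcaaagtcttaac
Rsad2: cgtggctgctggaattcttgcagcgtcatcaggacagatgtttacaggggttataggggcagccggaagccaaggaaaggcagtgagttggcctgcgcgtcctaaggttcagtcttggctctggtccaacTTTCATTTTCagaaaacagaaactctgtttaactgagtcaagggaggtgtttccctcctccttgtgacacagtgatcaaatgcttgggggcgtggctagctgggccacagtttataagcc
Ifit3: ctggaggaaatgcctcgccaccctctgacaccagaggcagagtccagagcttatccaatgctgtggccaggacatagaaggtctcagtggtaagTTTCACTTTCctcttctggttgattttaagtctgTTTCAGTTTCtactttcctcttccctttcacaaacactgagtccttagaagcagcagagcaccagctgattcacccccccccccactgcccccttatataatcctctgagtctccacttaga
Ifit3 holds 2 matches and the others 1 each, all on the opposite strand. The match begins 36 bases before the start site in Trim30a and 120 in Rsad2, and the nearer one of Ifit3 begins at 122. Of genes called higher 29 of 317 (9.1%) held the motif, beside 8 of 411 called lower (1.9%) and 3.6% of tested genes; 3.4% of all windows hold it. Within the list it was in 11 of 20 members called higher (55.0%) and in 9 of 16 tested but not called (56.2%). With upstream bases only, the higher genes stood at 7.3%. The sterol regulatory element core TCACNCCAC, searched in the same way, was in 1.4% of tested genes and in 1 of 18 members of the cholesterol list with a window, Hmgcs1. None of the 20 lysosome genes with a window held the CLEAR element (CACGTG with GT before it and AC after it), found in 0.3% of all windows, and 4 of 15 melanin genes held the M-box core TCATGTG, found in 3.8%. None of these letter strings contains another.

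The parts that carry the interferon signal were partly higher. Irf9, the factor that brings STAT proteins to DNA, read 7.81 and 7.87 against 8.26 and 8.29 (0.43 ± 0.08, adjusted p = 0.00433). Irf1 rose by 0.36 ± 0.08 (adjusted p = 0.0195) and Usp18, which blocks the receptor and strips Isg15 from proteins, by 0.48 ± 0.07 (adjusted p = 0.00109). Of 18 tested receptors, kinases and factors 4 were called, all higher, with these 3 among them. The receptor chains Ifnar1 and Ifnar2 had 0.15 ± 0.08 and 0.11 ± 0.08 (adjusted p = 0.292 and 0.418), and Stat2 and Irf7 had 0.25 ± 0.10 and 0.21 ± 0.07 (adjusted p = 0.15 and 0.08). The count was 10 without sgScramble replicate 1 and 1 without either sgArid1a library. Ifnb1 and all 14 Ifna genes are listed at 0 in the 6 libraries, as are 20 of 21 interferon genes of any type.

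Among sensors of nucleic acid 7 of 20 tested were higher and 1 lower. The RIG-I receptor Ddx58 read 8.06 and 8.02 against 8.64 and 8.49 (0.52 ± 0.08, adjusted p = 0.00224). Ifih1 (MDA5), Dhx58 (LGP2), Eif2ak2 (PKR) and Trim25 rose by 0.27 to 0.40. The kinases downstream had opposite signs, each close to the limit of the test. Tbk1 read 9.37 and 9.24 against 9.67 and 9.56 (0.31 ± 0.08, adjusted p = 0.0416). Ikbke read 9.2 and 9.07 against 8.77 and 8.85 (-0.32 ± 0.08, adjusted p = 0.0355). The authors' deposited table called neither kinase (adjusted p = 0.0927 and 0.0628). Neither was called in the untreated cultures, at 0.145 ± 0.081 and -0.049 ± 0.114 (limma adjusted p = 0.288 and 0.821). The DNA sensor cGAS, listed as Mb21d1, read 8.54 and 8.46 against 8.79 and 8.66 (0.23 ± 0.09, adjusted p = 0.13), and its partner STING, listed as Tmem173, 9.53 and 9.64 against 9.81 and 9.86 (0.24 ± 0.08, adjusted p = 0.0847). Neither passed. Without sgArid1a replicate 1 the count of higher sensors was 0, without sgArid1a replicate 2 it was 1, and without sgScramble replicate 1 it was 11.

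The MHC class I pathway had its calls in the loading machinery, and no heavy chain was called. Tap2, a subunit of the peptide transporter, read 7.35 and 7.36 against 7.72 and 7.79 (0.41 ± 0.08, adjusted p = 0.00748). Tap1, the immunoproteasome subunit Psmb8 and the peptide trimmer Erap1 rose by 0.33 ± 0.07, 0.28 ± 0.05 and 0.38 ± 0.08, and with Calr and Pdia3 made 6 of 21 called higher. H2-K1 read 10.82 and 11.2 against 10.75 and 10.93 (-0.17 ± 0.12, adjusted p = 0.418), H2-D1 had -0.21 ± 0.10 (adjusted p = 0.21) and B2m, the light chain, 0.07 ± 0.09 (adjusted p = 0.678). H2-K1 and H2-D1 are close copies, so their values are uncertain. Of the 6 calls 1 was left on removing sgArid1a replicate 1 and 0 on removing replicate 2, whereas there were 9 higher and 2 lower on removing sgScramble replicate 1, 10 on removing sgScramble replicate 2 and 10 with the length trend taken out. Of 9 tested chemokines and immune ligands 1 was called, Lgals9 (galectin-9: 8.85 and 8.77 against 9.26 and 9.37; 0.50 ± 0.08, adjusted p = 0.00282); without sgArid1a replicate 2 it was not. Cxcl10, which draws T cells, had 0.20 ± 0.10 (adjusted p = 0.249), and Cd274 (PD-L1) had 0.27 ± 0.10 (adjusted p = 0.121).

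With ruxolitinib the 7 interferon-related genes given next as examples lay below the sgArid1a DMSO libraries, and 4 of them lay below sgScramble. Ifit3 read 7.01 and 6.96 with ruxolitinib, under the 7.33 and 7.32 of sgScramble. Rtp4 read 5.9 and 5.96, Irf9 7.5 and 7.57, and Usp18 5.97 and 5.8, each also under both sgScramble libraries. Trim30a (7.75 and 7.83), Parp14 (8.02 and 7.95) and Rsad2 (9.44 and 9.47) lay between the other groups. Not every interferon-related gene named above lay lower with ruxolitinib. Tbk1 read 9.72 and 9.71 with ruxolitinib against 9.67 and 9.56 in sgArid1a DMSO. Cd274 read 8.36 and 8.53 against 8.45 and 8.38, and Ifnar1 10.89 and 10.86 against 10.89 and 10.8. These are the levels of a group that shares the fit, and no test was made on them here.

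Cholesterol synthesis and uptake was the list with the highest median rise, 0.34, with 17 of 26 tested members higher and 1 lower. Hmgcs1, the first committed enzyme (chr13:119690351-119708260, plus strand, mm10), read 10.5 and 10.34 in sgScramble against 11.02 and 11.04 in sgArid1a (0.61 ± 0.08, adjusted p = 0.000832). Mvd read 8.02 and 7.95 against 8.45 and 8.64 (0.57 ± 0.09, adjusted p = 0.00203). Acat2, Stard4 and Lss rose by 0.36 to 0.50. Sqle and Insig1 had 0.22 ± 0.08 and 0.20 ± 0.08 and did not pass (adjusted p = 0.114 and 0.16).

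Fatty acid genes were higher in 4 of 18 (Scd1, Fads2, Acly and Elovl6, by 0.33 to 0.43) and lower in 1, Mid1ip1, an activator of acetyl-CoA carboxylase (-0.35 ± 0.10, adjusted p = 0.0409). The cholesterol count of 17 became 4 without sgArid1a replicate 1 and 3 without replicate 2; 2 members, Hmgcs1 among them, held in every leave-one-out fit. The fatty acid count was 0 without either sgArid1a library, 9 without sgScramble replicate 1 and 7 with the length trend removed. With ruxolitinib Hmgcs1 read 11.06 and 11.02 and Hspa5 14.54 and 14.62, near their sgArid1a DMSO levels.

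**Figure D4:**
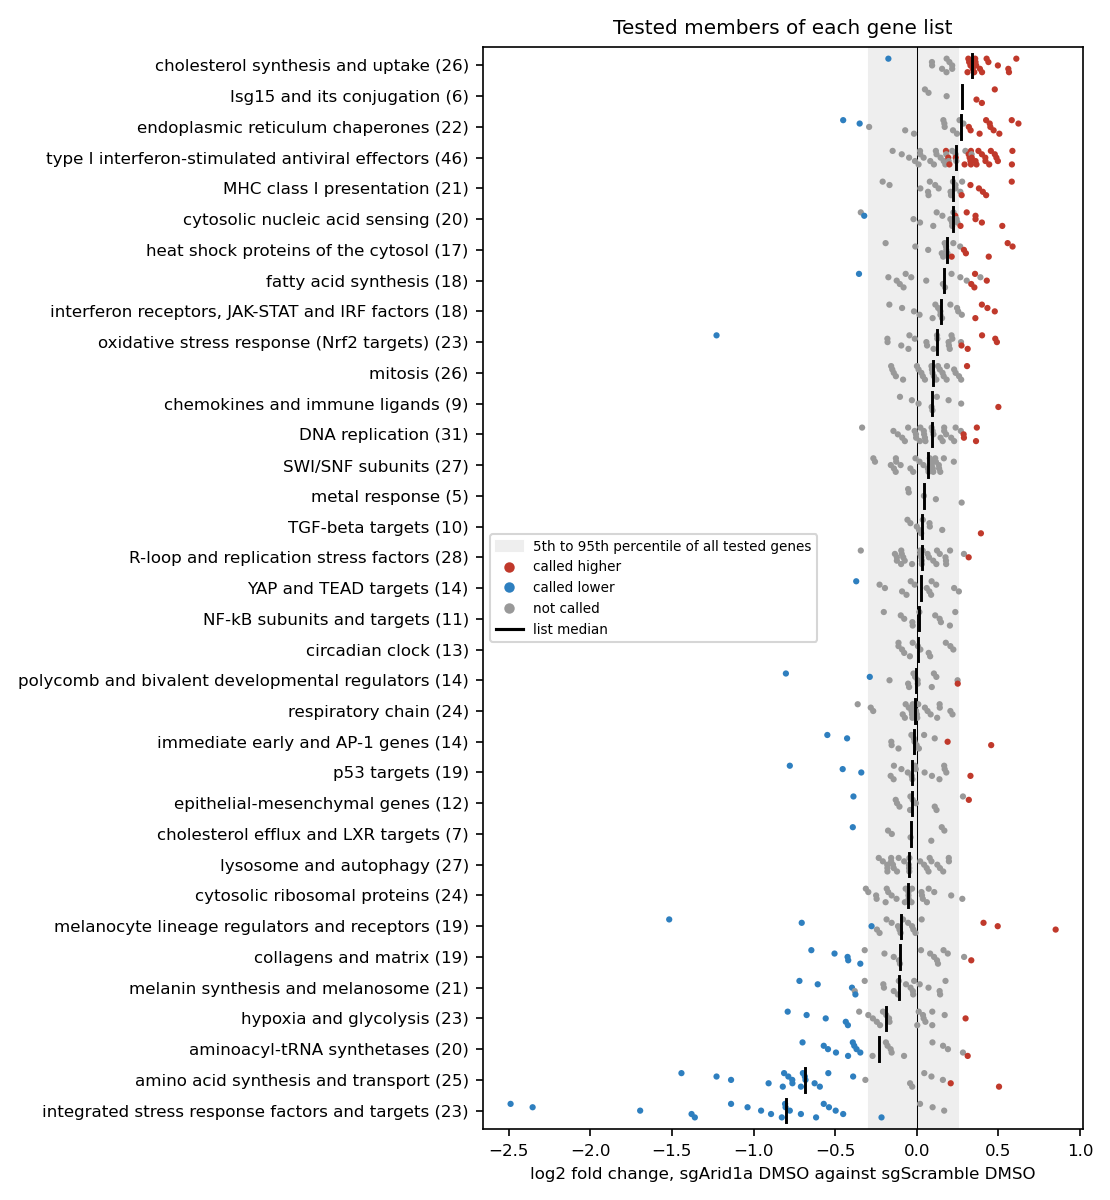
Log2 fold change of every tested member (x axis) of each gene list (y axis, with the number tested), red where called higher, blue where called lower and grey where not called; the black bar is the list median and the grey band spans percentiles 5 to 95 of all tested genes. Cholesterol synthesis has the highest median at 0.34 and the integrated stress response the lowest at -0.80.

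Pigment and lineage genes changed one by one. Of 21 melanin and melanosome genes 4 were lower and 0 higher: Sytl2 (-0.72 ± 0.08), which tethers melanosomes, Oca2 (-0.61 ± 0.08), a melanosome ion channel, Slc24a5 (-0.40 ± 0.08), an exchanger, and Tyr (-0.38 ± 0.09), the enzyme that starts melanin synthesis. Tyr read 11.85 and 12.03 against 11.51 and 11.61 (adjusted p = 0.0212). Tyrp1, the most abundant of them, read 17.69 and 17.94 against 17.45 and 17.42 and did not pass (adjusted p = 0.0724). Mitf and Sox10, the factors that define the lineage, had -0.05 ± 0.08 and -0.03 ± 0.10 (adjusted p = 0.742 and 0.896). In the untreated cultures, normalized apart, Mitf was called lower (-0.38 ± 0.07, limma adjusted p = 0.0103). Sox10 was not called there (0.002 ± 0.078, adjusted p = 0.991). The count of 4 was 7 without either sgScramble library and 2 without either sgArid1a library.

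Trpm1, a cation channel gene that Mitf drives (chr7:64185459-64224836, plus strand, mm10), read 9.12 and 9.18 against 7.5 and 7.77, among the deepest falls of tested genes on this scale (-1.52 ± 0.10, adjusted p = 1.75e-06). Kit, the stem cell factor receptor, read 8.64 and 8.48 against 7.92 and 7.79 (-0.70 ± 0.09, adjusted p = 0.000288). Met, the receptor of hepatocyte growth factor, went up from 12.49 and 12.34 to 12.95 and 12.87 (0.50 ± 0.09, adjusted p = 0.00483), as did Tbx2 (0.41 ± 0.08), a factor against senescence. Cited1, a coactivator that marks pigment cells, read 10.22 and 10.39 against 11.02 and 11.29 (0.85 ± 0.10, adjusted p = 0.00024). Of 19 tested lineage genes 3 were higher and 3 lower, the last being Sox9. Trpm1, Kit and Cited1 held in every leave-one-out fit, the higher count was 1 without either sgArid1a library, and the lower count was 2 without either of those and 6 without sgScramble replicate 2.

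On the deposited log2 scale the largest rise among tested genes was that of Kcnj13, an inward rectifier potassium channel (chr1:87384577-87394729, minus strand, mm10). It read 7.05 and 7.43 in sgScramble and 8.49 and 8.78 in sgArid1a (1.4 ± 0.13, adjusted p = 5.58e-05), and the authors' deposited table gives 3.13. That table gives larger rises for some other genes, such as Otof with 4.955 and Cyp1a1 with 4.534. Their log2 changes here were 0.553 and 0.431, so the ranking depends on the scale. The imprinted, retrotransposon-derived Peg10 read 11.19 and 10.92 against 11.92 and 11.86 (0.84 ± 0.10, adjusted p = 0.000226). Mcc, Gstm7, Nkain1, Hsd17b11, Ubl7, Aldh1l1 and Nol4l followed with 0.61 to 0.81. Ubl7 stood out by its level with ruxolitinib, 10.69 and 10.67, between sgScramble (10.55 and 10.35) and sgArid1a DMSO (11.1 and 11.19). Among the 12 largest rises all but Nol4l and Hspa5 held in every leave-one-out fit.

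Besides stress genes and Trpm1, the 12 largest falls included Ahnak, a giant scaffold protein, Cyb5r2, a reductase, Mbp, the myelin protein whose gene also gives the Golli transcripts, and Pck2, the mitochondrial PEPCK that Atf4 drives. Ahnak read 9.85 and 9.21 against 8.12 and 8.0 (-1.47 ± 0.15, adjusted p = 9.43e-05); its exons span 18093 bases, and it is one of the genes on which the sgScramble replicates differed most (0.64). Cyb5r2 read 7.82 and 7.79 against 6.4 and 6.49 (-1.36 ± 0.07, adjusted p = 2.85e-07). Pck2 read 10.58 and 10.56 against 9.29 and 9.22 (-1.31 ± 0.08, adjusted p = 1.17e-06). All 12 held in every leave-one-out fit.

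Growth, matrix and signalling lists moved in few members. Hypoxia and glycolysis genes were lower in 5 of 23 and higher in 1, led by the angiogenic factor Vegfa (10.39 and 10.37 against 9.55 and 9.63; -0.79 ± 0.08, adjusted p = 9.04e-05), which Atf4 can also drive, with Pgk1, Pfkp (-0.42 ± 0.08), Pdk1 (-0.56 ± 0.11) and the lactate exporter Slc16a3 (-0.68 ± 0.13). Slc2a1 and Hk2, the glucose transporter and hexokinase, had 0.01 ± 0.09 and 0.05 ± 0.11 and did not pass. The member called higher was Gapdh, whose many pseudogenes make its value uncertain. Pgk1 read 9.01 and 9.39 against 8.73 and 8.8 (-0.435 ± 0.111). In the untreated cultures, normalized apart, it read 13.68 and 13.47 against 12.98 and 12.92. The reason for this gap in level was not tested, so the value of Pgk1 is uncertain as well. Without sgScramble replicate 1 the lower count was 12, without sgArid1a replicate 1 it was 1 and without replicate 2 it was 3.

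Matrix genes were lower in 5 of 19 and higher in 1. Fbln1 (fibulin-1) read 11.02 and 10.97 against 10.33 and 10.36 (-0.65 ± 0.08, adjusted p = 0.000282) and Spp1 (osteopontin) 7.11 and 7.13 against 6.55 and 6.68 (-0.50 ± 0.07, adjusted p = 0.000879). Loxl2, Postn and Col1a2 fell, with -0.42 ± 0.07, -0.42 ± 0.08 and -0.35 ± 0.09, whereas Thbs1 rose by 0.33 ± 0.07. Postn and Col1a2 were also the fibroblast markers called lower, 2 of 4 tested, with Pdgfra at 0.20 ± 0.07 (adjusted p = 0.129); in bulk RNA, fewer cells of a type and less RNA per cell cannot be told apart. The lower matrix count was 3 without sgArid1a replicate 1 and 2 without replicate 2, and the higher count was 4 without sgScramble replicate 1. The lower fibroblast count was 1 without sgArid1a replicate 1 and 0 without replicate 2.

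Among p53 targets 3 of 19 were lower (Sesn2, Bbc3 and Gadd45a, the first and the last also known from the integrated stress response) and 1, Tap1, higher. Cdkn1a (p21) had -0.01 ± 0.09 (adjusted p = 0.95) and Mdm2 0.17 ± 0.08 (adjusted p = 0.247). Of the AP-1 genes, Jun and Jund fell (-0.43 ± 0.09 and -0.55 ± 0.09; adjusted p = 0.0113 and 0.00258) and Ier3 and Fos rose (0.46 ± 0.09 and 0.19 ± 0.05; adjusted p = 0.00866 and 0.0387). Fos lay near the floor of the table, at 4.65 and 4.64 against 4.8 and 4.87. S100a4, a metastasis-linked calcium-binding protein, read 4.56 and 4.68 against 4.23 and 4.23 (-0.39 ± 0.05, adjusted p = 0.000258), and Hoxb9 6.52 and 6.59 against 5.81 and 5.7 (-0.80 ± 0.06, adjusted p = 1.22e-05), the largest change among 14 tested polycomb and developmental regulators, of which Cbx7 also fell and Gata2 rose. S100a4 and Hoxb9 held in every leave-one-out fit. The p53 list had 6 lower without sgScramble replicate 1 and 1 without sgArid1a replicate 1, and the AP-1 list had 0 called without sgArid1a replicate 1 and 1 without replicate 2.

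Genes of DNA replication were higher in 4 of 31 (Cdc6, Orc1, Mcm3 and Mcm6, by 0.29 to 0.37), mitosis genes in 1 of 26 (Bub1b, 0.31 ± 0.08, adjusted p = 0.031) and factors of R-loops and replication stress in 1 of 28 (Ddx21, 0.32 ± 0.09, adjusted p = 0.0409). The shares called higher in these lists are near or above the 3.5% of all tested genes. R-loops are RNA-DNA hybrids. The nucleases that cut them, Rnaseh1, Rnaseh2a and Rnaseh2c, had 0.02 ± 0.08, 0.02 ± 0.09 and -0.34 ± 0.11 and did not pass (adjusted p = 0.898, 0.914 and 0.0694). The authors' deposited table calls Rnaseh2c lower (log2 fold change -0.581, adjusted p = 0.0405). Rnaseh2c is a short transcript whose sgScramble libraries read 8.93 and 9.29, and its untreated change was 0.01 ± 0.11. The replication count was 0 without either sgArid1a library and 10 without either sgScramble library, with 5 lower as well without sgScramble replicate 1. Mitosis had 11 higher and 4 lower without sgScramble replicate 1, 4 higher without replicate 2 and 4 higher with the length trend removed. The R-loop list had 6 higher without sgScramble replicate 1.

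No member was called among 27 lysosome, 24 respiratory chain, 24 ribosomal protein, 13 circadian clock, 11 NF-kB or 5 metal-response genes tested. Their medians lay between -0.05 and 0.04. Over all tested genes 7.88% were called in either direction, so 0 calls in lists of this size says little. For the short ribosomal protein and respiratory chain transcripts the controls were far apart: the respiratory subunit Ndufa4 read 13.32 and 13.73 against 13.3 and 13.19. Without sgScramble replicate 1, 9 ribosomal, 6 respiratory and 5 lysosome genes were called lower, and without replicate 2, 1 ribosomal and 5 respiratory genes higher.

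The same guides were sequenced in untreated cultures, in a table normalized apart from this one, with 8.7 to 22.8 M reads per library. There 574 of 11686 tested genes (4.91%) were called higher and 676 (5.78%) lower. Leaving out 1 untreated library at a time moved the sum of 1250 calls between 265 and 3587. Of 405 genes called higher with DMSO and tested in both tables, 229 were also higher untreated (56.5%, or 40.1% of the 571 higher there); of 501 called lower, 334 were also lower (66.7%, or 49.8% of the 671 lower there). None was called in opposite directions. The log2 changes had a correlation of 0.72 across 11457 genes, which share guides, cell line and gene length.

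By list, the integrated stress response had 19 of 22 lower and 1 higher in the untreated cultures (median -0.92). Type I effectors had 29 of 44 higher (median 0.32) and cholesterol genes 19 of 25 (median 0.44), with 0 lower in each. ER chaperones had 14 of 22 higher and 3 lower (median 0.37). Some other lists differed more from their DMSO counts. Nrf2 targets had 4 of 23 higher and 3 lower, beside 5 and 1 with DMSO. DNA replication had 11 of 31 higher, beside 4 with DMSO. SWI/SNF had 3 of 27 lower and 1 higher, beside 0 with DMSO. Trib3 and Nupr1 fell in the untreated cultures too, with -2.25 ± 0.10 and -2.24 ± 0.07. Kcnj13 had 0.70 untreated beside 1.4 with DMSO, and Slc7a11 -0.70 beside -1.23. These differences were not tested, since the tables were scaled separately. In both genes the 2 sets were called in the same direction.

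**Figure D5:**
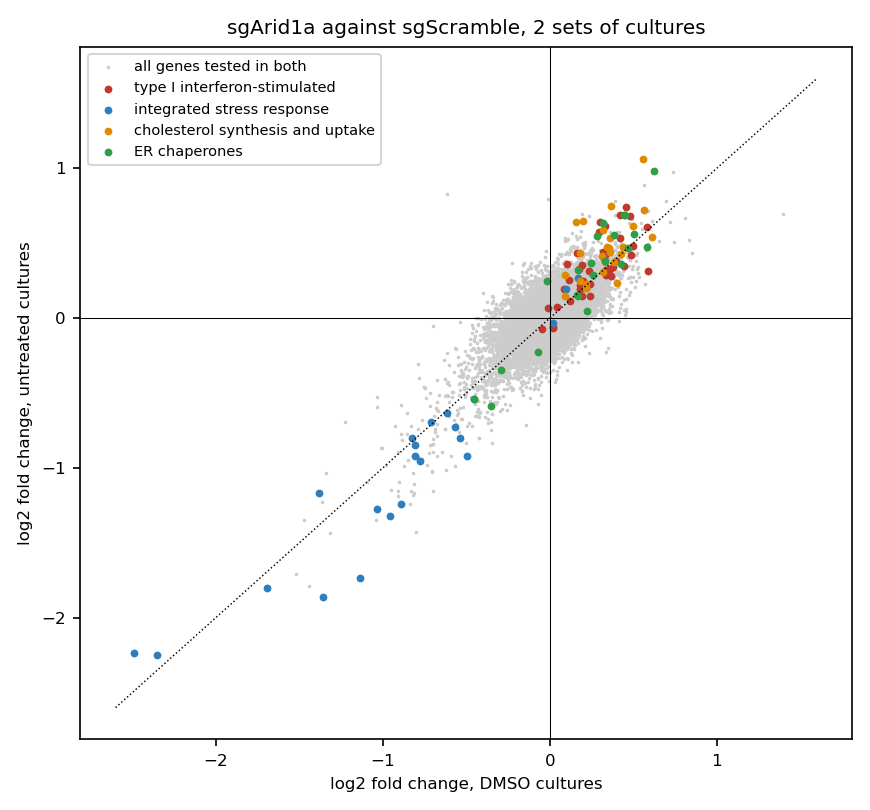
Log2 fold change of sgArid1a against sgScramble with DMSO (x axis) and untreated (y axis) for the genes tested in both tables, with 4 lists in colour and a dotted line of equal change. Stress response genes spread down the lower left to -2.49 and -2.24, and most interferon, cholesterol and chaperone genes sit in the upper right.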

How the data were processed

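RNA sequencing libraries of polyA RNA from cultured cells were aligned with STAR and counted with HOMER, per the submitters' processing notes, which also name DESeq2, whose role in these tables is not given in the sources used here. The deposited expression values are on a log2 scale, with the lowest genes drawn together as a regularized log does, on mm10. The same deposited tables hold the authors' log2 fold changes and adjusted p-values, made with HOMER's differential expression script and its edgeR option, per the file headers. No strand option appears in the file headers, so antisense pairs and near-identical copies are uncertain.

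Genes whose log2 values averaged 4 or more over the 6 libraries were fitted with limma 3.58.1 in R 4.3.3 (intensity trend, 3 groups of 2) and called at a Benjamini-Hochberg adjusted p under 0.05 over all tested genes; ± is the standard error. The script was tested on simulated data. Named genes are Arid1a, a fixed panel from each list, the 12 largest rises and falls among called genes, and the 5 members of each list with the smallest p; Atf6, Cbs, Cebpb, Cebpg, Ddit4, Gbp3, Gbp7, Hars, Ikbke, Irgm1, Kars, Mthfd1, Ppp1r15a, Slc3a2, Slc7a5, Tbk1, Vars and genes that complete a count were chosen after their values were seen. Members and lists were chosen with earlier results of these data known. Alternatives were other filters, fits and scalings, the replicate block and each library left out; length-trend removal, the double-knockout table and crossed numbers were added after the data were seen. Some items are not reported here.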

Additional observations from a re-analysis of the deposited data

Results flagged for a closer look

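In 3 named genes every sgArid1a library lay on one side of every sgScramble library with DMSO and on the other side in the untreated cultures. Groups that did not overlap were common among all tested genes, in both directions and in both tables. How many genes would lie on opposite sides by chance was not computed, so this count is a description only. Hlf, a circadian factor, had a log2 change of 0.073 with DMSO and -0.062 untreated. Cdk1, the mitotic kinase, had -0.157 and 0.271, and Cd44, a hyaluronan receptor, had 0.121 and -0.148. None of the 3 passed the limma test in either table (adjusted p = 0.384, 0.361 and 0.389 with DMSO), and the difference between the tables was not tested, since they were normalized separately.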

How the results depend on the processing

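Of the named genes, all 158 that were called kept their direction under every alternative run, and 54 kept their call in each fit without 1 library; some genes that were not called changed sign. The DMSO count of 928 became 1437 with the transcript length trend removed and ranged from 179 to 3240 with 1 library left out; the cause was not tested. The untreated count of 1250 became 683 with only its 4 libraries and ranged from 265 to 3587. The 172 calls within the lists ranged from 60 to 312 with 1 library left out. By list the leave-one-out ranges were 5 to 27 for type I effectors, 0 to 10 for MHC class I (10 with the length trend removed), 17 to 20 for the integrated stress response, 14 to 18 for amino acid genes, 3 to 12 for tRNA synthetases, 0 to 14 for ER chaperones and 3 to 19 for cholesterol genes. A fit without 1 library assumes that the lone one of its group varies like the other groups. The sgScramble DMSO pair differed more than the other pairs of its table. The upper ends of the DMSO ranges are therefore not comparable with the main counts where they come from a fit without an sgScramble library.

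The replicate numbers were not taken to pair the libraries, since nothing in the labels says that they do: the deviations of same-numbered sgScramble and sgArid1a DMSO libraries had a correlation of -0.07, beside -0.17 for sgScramble DMSO with sgArid1a ruxolitinib and 0.30 for sgArid1a DMSO with sgArid1a ruxolitinib. With the number as a replicate block, 737 DMSO and 894 untreated genes were called. Crossing the untreated numbers, whose correlation was -0.41, gave 1632 calls. With no filter on low values 724 DMSO genes were called, and with a limit of 2 in place of 4 there were 1004.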
